A study of Homo sapiens with 12 samples.

Results

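Parental A375 and parental CHL1 are human melanoma cell lines whose RNA was compared at baseline, before any selection with drug. The comparison set the 3 untreated A375 libraries against the 3 untreated CHL1 libraries, 6 of the 12 libraries in the series, chosen by the group that each deposited count column names. The other 6 libraries are from derivatives of the same lines selected for growth in palbociclib, a drug against the kinases CDK4 and CDK6, over 7 months of rising doses in A375 and 3 months in CHL1. They were maintained at 4 µM of the drug, which was withdrawn 72 h before RNA was taken, and they enter here only where the line difference was measured a second time. Parental cells grew in supplemented RPMI medium without drug, and the labels name no engineered allele in any group. Each group is 1 line, so every difference is between these 2 lines and not between kinds of melanoma. Whether the 3 libraries of a line are separate cultures is not in the labels, so all p-values rest on the spread among 3 libraries a line, which may be technical. The counts of the lines were deposited in separate tables, so a difference between lines and a difference between tables cannot be told apart.

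Melanocytes are the pigment cells of the skin, and the transcription factors MITF, SOX10 and PAX3 hold their identity and drive enzymes of pigment synthesis such as TYR, TYRP1 and DCT. Melanoma cells can lose this program and take up a neural crest-like or dedifferentiated state, marked by AXL, EGFR, NGFR, WNT5A, SOX9 and ZEB1 and known for tolerance to inhibitors of the MAPK pathway. A375 carries an activating BRAF mutation, whereas CHL1 carries wild-type BRAF. CDK4 and CDK6 pair with D-type cyclins to phosphorylate RB, which frees E2F factors to start DNA replication, and the inhibitors encoded by CDKN2A and CDKN2B hold these kinases back. The study set these lines against palbociclib, and the baseline shows from which state each one started.

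Library totals ran from 25398920 to 26435726 counts in A375 and from 26286297 to 29230296 in CHL1. Of 36675 gene identifiers in either table, 18421 had enough counts to be tested. Levels are given as CPM, the library-size-scaled read count, with TMM factors, and a floor of 3 counts in a library stood for 0.111 CPM in A375 and 0.112 CPM in CHL1. The first principal component of the 6 libraries held 96.4% of the variance and separated the lines, and log expression correlated across genes at 0.9927 or more within a line and at 0.793 or less between lines. Mitochondrially encoded genes took 1.88% ± 0.169 (SD, n = 3) of counts in A375 and 3.17% ± 0.298 (SD, n = 3) in CHL1. The libraries of the lines did not overlap in that share, and the two-sided exact permutation p was 0.1, the smallest that 3 against 3 libraries can give.

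Most genes differed between the lines. At an adjusted p below 0.05 in edgeR's quasi-likelihood test with Benjamini-Hochberg adjustment, 7163 genes were higher in A375 and 6909 in CHL1, 76.4% of the genes tested. A second call also asked for at least 2-fold, and it took 3515 genes higher in A375 (19.1%) and 3456 higher in CHL1 (18.8%). These percentages are the background for each gene group described from here on. At 4-fold the counts were 1834 and 1760, at 8-fold 1249 and 1122, and at 32-fold 708 and 558. The libraries of the lines did not overlap for 14554 genes (79% of those tested), the background for each statement of no overlap below. Log2 fold changes are A375 over CHL1 throughout, so positive values are higher in A375, and their median over all genes tested was 0.03. Scaling by total counts in place of TMM moved that median to 0.13 and the share of 2-fold calls that were higher in A375 from 50.4% to 54.9%. The line with more 2-fold calls depended on the filter: a minimum of 1 CPM in 3 libraries gave 2808 higher in A375 and 2962 in CHL1, and identifiers in both tables alone gave 3345 and 3412.

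**Figure D1:**
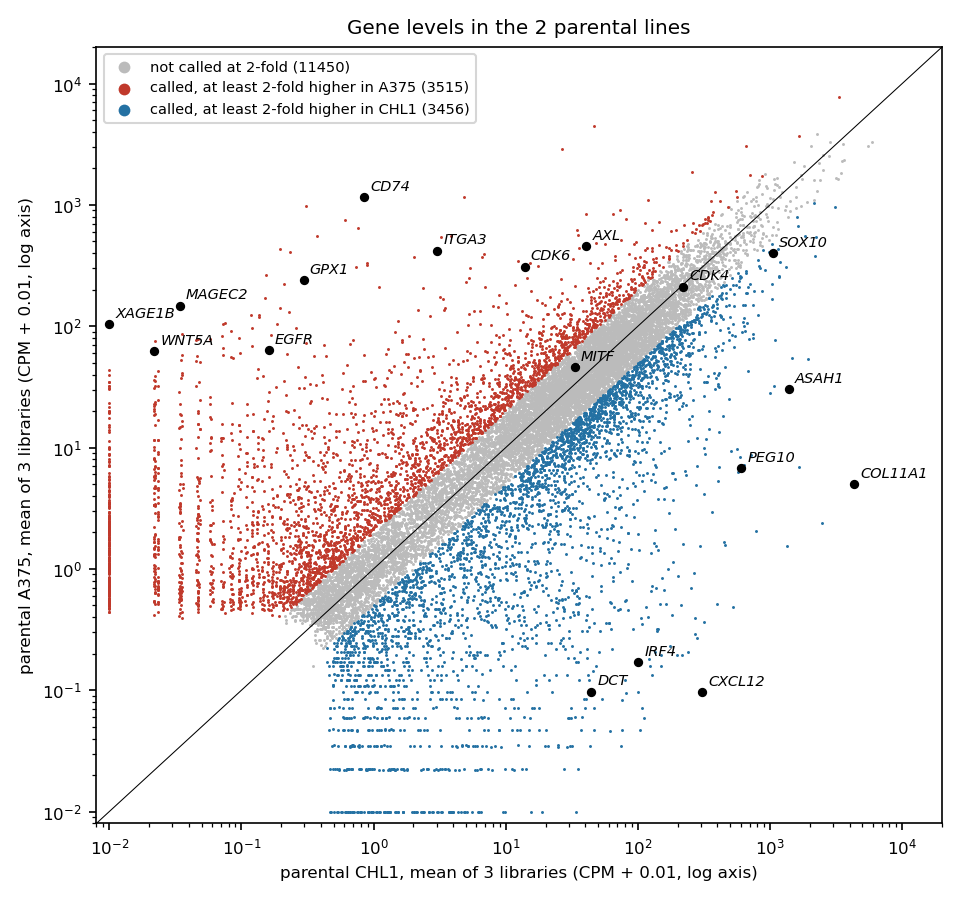
Mean level of each tested gene in parental CHL1 (x axis) and parental A375 (y axis), in CPM with 0.01 added, on log axes, with the line of equal levels. Red and blue points are the 3515 and 3456 genes called at 2-fold, and black points are labelled genes. Of these, XAGE1B and CD74 lie far above the diagonal, CXCL12 and COL11A1 far below it, and CDK4 on it.

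The melanocyte program was higher in CHL1 for most of its genes, but MITF was not among them. Of 38 lineage and pigment genes, 29 passed the filter on low counts, 17 were called at 2-fold higher in CHL1 and 8 higher in A375, with a median log2 fold change of -1.49. SOX10, the neural crest factor that also acts upstream of MITF, had 492, 354 and 353 CPM in A375 libraries 1 to 3 and 936, 1041 and 1160 CPM in CHL1 (log2 fold change -1.39, SE 0.13, edgeR adjusted p = 3.31e-06). It was high in both lines, and every CHL1 library stood above every A375 library. PAX3 had 14.5, 15 and 14.3 CPM in A375 and 39.6, 41.8 and 41.8 CPM in CHL1, and TFAP2A, another regulator of the neural crest, had means of 19.1 and 90.8 CPM. MITF went the other way, with 43.3, 43.1 and 51.9 CPM in A375 and 31.3, 32.2 and 36.2 CPM in CHL1 (log2 fold change 0.47, SE 0.09, edgeR adjusted p = 0.000797). IRF4, a factor that works with MITF on TYR, separated the lines most within the list: 0.113, 0.259 and 0.110 CPM in A375 against 93.1, 99.4 and 108 CPM in CHL1.

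Pigment enzymes and melanosome genes showed which part of the program was on. DCT, which converts dopachrome in melanin synthesis, had 0.189, 0.0370 and 0.0366 CPM in A375 and 41.2, 46.5 and 45.2 CPM in CHL1. The depth-scaled ratio was 511-fold higher in CHL1, with an exact 95% interval of 248 to 1271 that covers counting error only. OCA2, a melanosomal transporter, had 1.17, 1.37 and 0.732 CPM in A375 and 86, 83.4 and 82.5 CPM in CHL1 (log2 fold change -6.26, SE 0.13). SLC24A4, a potassium-dependent sodium-calcium exchanger tied to pigmentation, had a log2 fold change of -6.76 (SE 0.20). The defining melanosome genes were nearly silent in both lines, however. TYR, the rate-limiting enzyme of melanin synthesis, had 0 counts in each A375 library and 0.462, 0.479 and 0.635 CPM in CHL1, at least 4.72-fold higher against a floor of 3 counts per library. PMEL, which forms the fibrils of the melanosome, had 1.32, 1.07 and 0.439 CPM in A375 and 1.07, 1.25 and 0.873 CPM in CHL1, and the groups overlapped (edgeR adjusted p = 0.651). MLANA had a mean of 0.459 CPM in A375 and 0.727 CPM in CHL1 (edgeR adjusted p = 0.0632), and it was called at -0.81 without CHL1 library 1. SOX10, PAX3, S100B and TFAP2A were thus read in both lines, and PMEL, MLANA and TYR were close to 0 in both. The 11 melanocytic markers summed to 456 to 613 CPM per library in A375 and 1325 to 1572 CPM in CHL1. SOX10 alone, at the levels given above, made up most of the sum in both lines.

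The 8 list members higher in A375 do other work than the enzymes. GPNMB, a glycoprotein of melanosomes and lysosomes, had 66.4, 74.4 and 68.7 CPM in A375 and 0.356, 0.516 and 0.357 CPM in CHL1 (log2 fold change 7.39, SE 0.13). MLPH, which links melanosomes to the myosin encoded by MYO5A, was higher by 6.03 on the log2 scale, and MYO5A itself had means of 105 and 46.5 CPM. The melanosome GTPases split: RAB38 was higher in A375 (log2 fold change 1.31) and RAB27A in CHL1 (-1.56). Within A375, library 1 stood above the other libraries for several lineage genes: ERBB3 had 302, 171 and 161 CPM and S100B 26.6, 15.6 and 12 CPM. All CHL1 libraries were still higher for both genes.

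MITF and its relatives bind the E-box CATGTG, and the promoters of pigment genes that moved together are shown for that reason, in the RefSeq sequence of build GRCh38.p14, from 250 bases before to 50 bases after the start site on the gene's strand. Capitals mark the E-box CATGTG or its reverse complement CACATG. DCT is on the minus strand at chr13:94479633-94479932 and its matches begin at -215 and -134 from the start site. Of 2 promoters listed for DCT, only the 1 shown held a match. OCA2 is on the minus strand at chr15:28099266-28099565 with a match at -153.
DCT: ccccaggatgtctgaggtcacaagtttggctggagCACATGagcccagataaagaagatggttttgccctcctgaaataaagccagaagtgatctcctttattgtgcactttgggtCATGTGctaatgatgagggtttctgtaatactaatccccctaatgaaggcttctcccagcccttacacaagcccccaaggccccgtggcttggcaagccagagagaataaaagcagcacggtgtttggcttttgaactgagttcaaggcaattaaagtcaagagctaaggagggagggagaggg
OCA2: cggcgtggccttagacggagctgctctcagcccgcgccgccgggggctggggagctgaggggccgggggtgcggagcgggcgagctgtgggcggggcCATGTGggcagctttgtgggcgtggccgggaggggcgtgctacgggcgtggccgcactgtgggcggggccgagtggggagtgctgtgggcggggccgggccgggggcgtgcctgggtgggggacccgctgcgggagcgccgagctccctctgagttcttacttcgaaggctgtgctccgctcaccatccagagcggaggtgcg
The E-box, searched on either strand, was found in 11.1% of 35116 promoters of this length and in at least 1 promoter of 13.4% of genes. Among list members with a promoter in the table, it was present for 7 of 12 genes that were higher in CHL1 and 2 of 6 that were higher in A375. It was also present for 4 of 6 members too low to test and 1 of 3 tested members not called at 2-fold. A match is a string of letters and not evidence of binding.

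**Figure D2:**
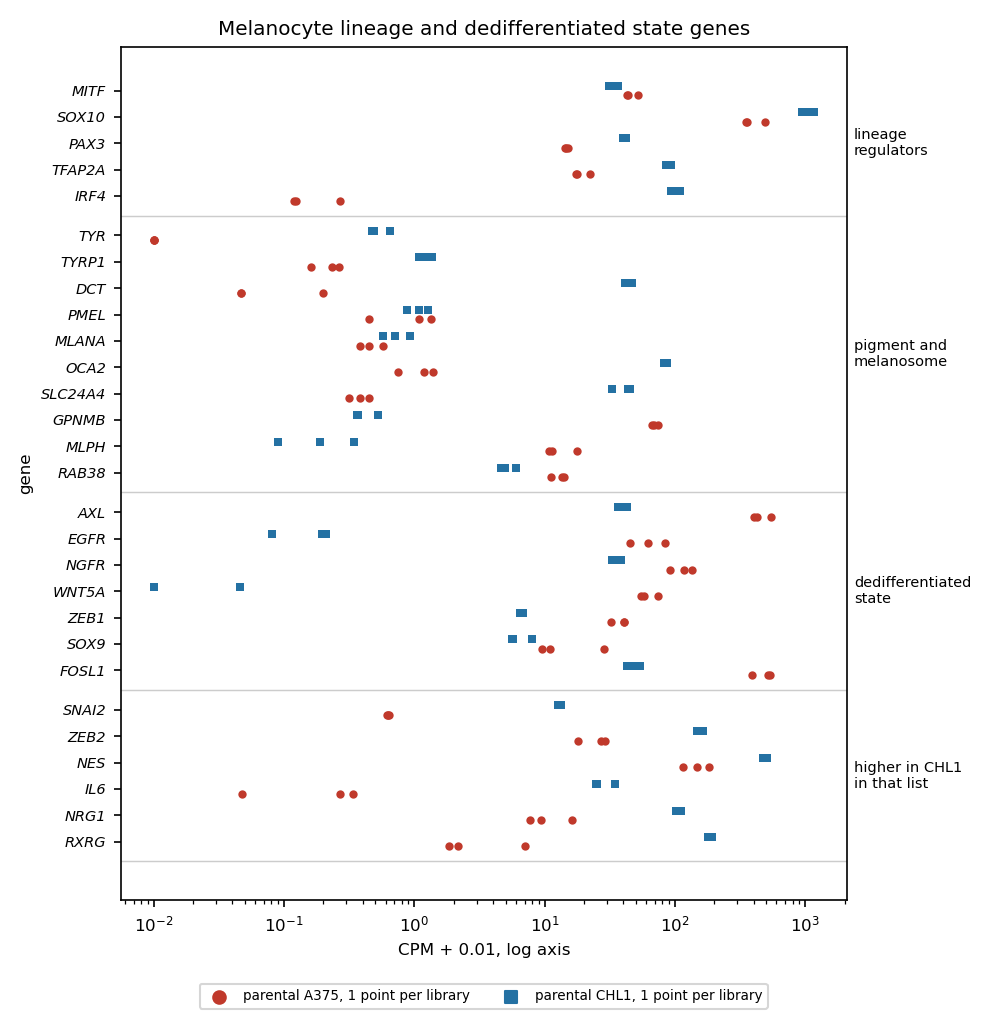
CPM with 0.01 added (log x axis) of lineage regulators, pigment genes and genes of the dedifferentiated state, 1 point per library, red circles for parental A375 and blue squares for parental CHL1. The lines do not overlap for DCT, OCA2, EGFR or WNT5A, overlap for PMEL, and lie close together for MITF.

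Genes of the neural crest-like and dedifferentiated state were mostly higher in A375. Of 39 genes 38 were tested, 24 were called at 2-fold higher in A375 and 7 higher in CHL1, with a median log2 fold change of 1.42. AXL, a receptor kinase that marks this state, had 402, 422 and 546 CPM in A375 and 43.1, 36.8 and 42 CPM in CHL1 (log2 fold change 3.49, SE 0.12, edgeR adjusted p = 1.97e-09). EGFR, the receptor of epidermal growth factor, had 62.2, 44.8 and 83.5 CPM in A375 and 0.0711, 0.184 and 0.198 CPM in CHL1, a depth-scaled ratio of 426 (exact 95% interval 244 to 825). WNT5A, a non-canonical WNT ligand tied to invasion, had 54.8, 74 and 58.1 CPM in A375 and 1 count in all of CHL1. None of these genes overlapped between the lines, as was so for 79% of all genes tested. The low-affinity neurotrophin receptor NGFR had 116, 134 and 91.7 CPM against 38.6, 32.6 and 35.5 CPM (log2 fold change 1.68, SE 0.13). SOX9, often opposed to SOX10, was higher in A375 by 1.36 (SE 0.38), but only A375 library 3, at 28.7 CPM, stood far above CHL1, and the other A375 libraries had 11 and 9.59 CPM against 5.58, 5.72 and 7.93 CPM.

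The switch factors did not move as a block. ZEB1, a repressor of epithelial genes, was higher in A375 with 40.3, 32.2 and 40.6 CPM against 6.83, 6.42 and 6.67 CPM. ZEB2 and SNAI2, which are known from melanocytic cells, were higher in CHL1: ZEB2 had means of 24.6 and 153 CPM, and SNAI2 had 0.605, 0.630 and 0.622 CPM in A375 against 13.1, 13.3 and 12.7 CPM. FOSL1, a member of the AP-1 family that ERK stabilises, had 389, 518 and 540 CPM in A375 and 53.8, 42.4 and 47.6 CPM in CHL1. The list members that were higher in CHL1 also included RXRG, a retinoid receptor of the neural crest-like state (log2 fold change -5.66), NES (-1.72), NRG1, the ligand of ERBB3 (-3.28), and the cytokine IL6 (-7.04). RXRG was uneven within A375, at 7.07, 2.15 and 1.83 CPM, and stood at 180 to 191 CPM in CHL1.

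The coactivators YAP and TAZ, which answer to cell shape and matrix, form 1 list with their partners and targets, and it was higher in A375 for 15 of 29 genes and higher in CHL1 for 4, with a median log2 fold change of 1.04. WWTR1, which encodes TAZ, had 702, 585 and 569 CPM in A375 and 37, 32.4 and 33.8 CPM in CHL1. Every A375 library was thus above every CHL1 library, and YAP1 followed with a log2 fold change of 1.04 (SE 0.06). Among their targets, CCN2 had 80.8, 125 and 108 CPM against 9.21, 6.27 and 3.73 CPM, ANKRD1 differed by 6.68 on the log2 scale, and MYOF by 7.15. TEAD2, a partner of the coactivators, was lower in A375 (-1.50), and TEAD1 (0.52) did not reach 2-fold.

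Receptor tyrosine kinases and their ligands were divided rather than shifted: of 52 tested genes out of 58, 19 were called higher in A375 and 21 in CHL1, with a median of -0.03 that became 0.07 with total-count scaling. The receptors of A375 were EGFR, AXL, DDR2 (45, 33.8 and 46.1 CPM against 1.21, 0.996 and 0.635 CPM), EPHA4 and EPHB2. Those of CHL1 were MERTK, FGFR2, FGFR3, ALK, ERBB4 and INSR. MERTK, from the same family as AXL, had 0.378, 0.111 and 0.439 CPM in A375 and 91.8, 88.9 and 93 CPM in CHL1. FGFR2, a receptor of fibroblast growth factors, had 1.25, 1.48 and 1.90 CPM in A375 and 136, 133 and 140 CPM in CHL1. Both receptors were thus read in CHL1 and low in every A375 library. Ligands of EGFR also parted: TGFA had 476, 424 and 292 CPM in A375 and 7.47, 6.34 and 6.82 CPM in CHL1, while HBEGF was higher in CHL1 (-1.38, SE 0.16). MET and IGF1R, with log2 fold changes of 0.24 and 0.26, differed little, and IGF1R was not called (edgeR adjusted p = 0.0765).

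Among genes of the MAPK pathway, members of the cascade and genes that ERK activity induces taken as 1 list, more were called higher in A375 than in CHL1. Of 33 genes, all tested, 14 were called at 2-fold higher in A375 and 4 in CHL1, with a median of 0.64. DUSP6, a phosphatase that switches off ERK, had 214, 234 and 184 CPM in A375 and 64.6, 107 and 94.2 CPM in CHL1 (log2 fold change 1.25, SE 0.16, edgeR adjusted p = 3.62e-05). SPRY4, another feedback inhibitor, had 162, 116 and 99 CPM against 26.6, 23.9 and 23.3 CPM, and DUSP4 had 523, 367 and 429 CPM against 41.5, 35.1 and 30.9 CPM. The groups did not overlap for any of these inhibitors, as was so for 79% of all genes tested. ETV4 (log2 fold change 2.67), SPRY2 (2.07) and PHLDA1 (4.00) followed the same direction. ETV5, a relative of ETV4, did not: it had 98.3, 81.5 and 89.3 CPM in A375 and 135, 125 and 135 CPM in CHL1. MYC was also higher in CHL1, with 18.1, 24.9 and 25 CPM against 92.2, 135 and 167 CPM (log2 fold change -2.53, SE 0.20). EGR1, an immediate-early gene, was called higher in CHL1 (-2.31, SE 0.67), but CHL1 library 1 had 14.1 CPM, the other CHL1 libraries 175 and 124 CPM, and the groups overlapped.

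Of the kinases and GTPases of the cascade, BRAF had 19.7, 18.8 and 19.8 CPM in A375 and 27.7, 26.4 and 26.6 CPM in CHL1 (log2 fold change -0.47, SE 0.07), NRAS differed by -0.77 and MAP2K1 by 0.64. HRAS and NF1 were not called.

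The targets of palbociclib differed in 1 kinase and not in the other. CDK4 had 206, 213 and 218 CPM in A375 and 224, 201 and 230 CPM in CHL1, and the lines overlapped (log2 fold change -0.04, SE 0.06, edgeR adjusted p = 0.569). CDK6 had 319, 335 and 278 CPM in A375 and 15, 14.5 and 12.1 CPM in CHL1 (log2 fold change 4.48, SE 0.10, edgeR adjusted p = 1.05e-10). Every A375 library was thus far above every CHL1 library for CDK6, while the 30 neighbouring genes had a median of -0.34. Of the D-type cyclins that activate both kinases, CCND1 had 638, 760 and 634 CPM in A375 and 399, 390 and 428 CPM in CHL1 (log2 fold change 0.74, SE 0.08), and CCND3 was higher in CHL1 (-0.76, SE 0.07). CCND2 had 2 counts in the A375 libraries and 0 in CHL1 and was not tested.

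Inhibitors of the kinases differed in both directions. CDKN2A, which encodes the CDK4/6 inhibitor p16 and the p53 activator ARF from transcripts that a gene count does not separate, had 1.74, 1.85 and 3.11 CPM in A375 and 23.2, 20.1 and 23.4 CPM in CHL1 (log2 fold change -3.31, SE 0.18). CDKN2B, its neighbour, had 0.0378, 0.0370 and 0 CPM in A375 and 6.33, 5.94 and 5.79 CPM in CHL1, a depth-scaled ratio of 244 (exact 95% interval 67 to 2016). Both were low in each A375 library, and the 30 genes around them had a median of 0.17. CDKN1A, encoding p21 and a target of p53, went the other way, with 150, 141 and 153 CPM in A375 and 27.1, 22.6 and 24.3 CPM in CHL1 (log2 fold change 2.58, SE 0.08, edgeR adjusted p = 6.23e-10). CDKN1C was higher in A375 as well (1.40, SE 0.18), CDKN1B in CHL1 (-1.09, SE 0.07), and CDKN2C, at 55.8 to 60.9 CPM and 59.1 to 63 CPM, was not called.

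RB1 had 119, 99.2 and 103 CPM in A375 and 105, 107 and 104 CPM in CHL1, and the groups overlapped (log2 fold change 0.02, SE 0.07, edgeR adjusted p = 0.797). E2F1 had 55.7, 93.6 and 68 CPM against 96.3, 88.5 and 87.7 CPM and was not called in the main fit (edgeR adjusted p = 0.0718), though it was called lower in A375 by DESeq2 (adjusted p = 0.0341), without the low-count filter (edgeR adjusted p = 0.0162), in the 12-library fit (0.0365), with a replicate block (0.0331) and without A375 library 2 (-0.54, 0.000278). E2F3, an activator of replication genes, was higher in CHL1 (-1.40, SE 0.07), and E2F4, which acts mainly in repression, in A375 (1.76, SE 0.06). CCNE2 was higher in CHL1 (-1.13, SE 0.11). CCNE1 had 15.8, 19.1 and 17.7 CPM against 21.3, 21.6 and 20.8 CPM (log2 fold change -0.28, SE 0.09, edgeR adjusted p = 0.0144), and that call ended with total-count scaling (edgeR adjusted p = 0.09) and without A375 library 1 (edgeR adjusted p = 0.0579). CDK2, the partner of cyclin E, was not called (edgeR adjusted p = 0.0587), but was called without the low-count filter (edgeR adjusted p = 0.039), in the 12-library fit (0.0257), with a replicate block (0.0446), without A375 library 2 (-0.24, 0.00266) and without CHL1 library 3 (-0.22, 0.0427). Over the whole axis, 4 of 33 tested genes were called at 2-fold higher in A375 and 8 in CHL1, with a median of -0.05 that became 0.05 with total-count scaling.

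Proliferation genes differed little in size. Of 43 G1/S and replication genes none was called at 2-fold higher in A375 and POLE alone in CHL1 (-1.27), although 17 and 16 passed the adjusted p without the fold requirement. Of 47 G2/M genes, CDC25B and UBE2C were called higher in A375 and ECT2 in CHL1. MKI67, a marker of cycling cells, had 538, 417 and 460 CPM in A375 and 347, 342 and 302 CPM in CHL1 (log2 fold change 0.51, SE 0.09). TOP2A, which untangles DNA in mitosis, had 600, 530 and 562 CPM against 569, 606 and 521 CPM, and the groups overlapped.

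**Figure D3:**
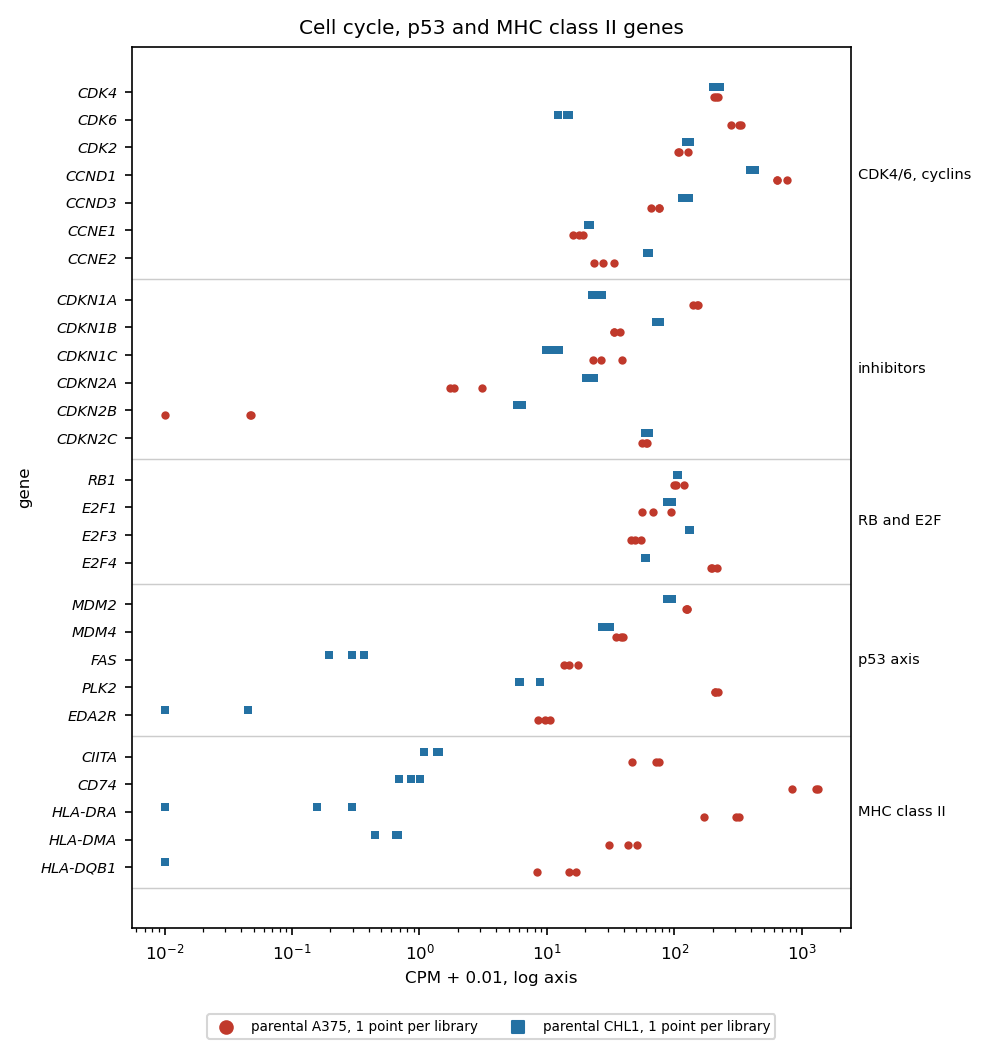
CPM with 0.01 added (log x axis) of cell cycle, p53 and MHC class II genes, 1 point per library, red circles for parental A375 and blue squares for parental CHL1. CDK4, RB1 and CDKN2C overlap or lie together, CDK6 and CDKN1A are to the right in A375, CDKN2A and CDKN2B to the right in CHL1, and MHC class II genes are far to the right in A375.

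Most targets of p53, a transcription factor that answers to stress and DNA damage, were higher in A375. Of 40 p53 target genes 39 were tested, 20 were called at 2-fold higher in A375 and 4 in CHL1, with a median of 1.10. FAS, a death receptor, had 14.8, 13.5 and 17.6 CPM in A375 and 0.284, 0.184 and 0.357 CPM in CHL1, and PLK2, a kinase induced by stress, had 206, 206 and 221 CPM against 8.82, 6.16 and 6.03 CPM. EDA2R, a receptor of the TNF family, had 9.64, 8.44 and 10.5 CPM in A375 and 1 count in all of CHL1. None of these targets overlapped between the lines, as was so for 79% of all genes tested. DDB2, which recognises damaged DNA, had 57.2, 59.3 and 63 CPM against 9.67, 8.92 and 10.8 CPM, and BAX, which opens mitochondria in apoptosis, had a log2 fold change of 1.35. MDM2, the ubiquitin ligase of p53, had 122, 126 and 125 CPM in A375 and 95.5, 93.5 and 87.4 CPM in CHL1, a difference of 0.43 (SE 0.05) that did not reach 2-fold. Among the 4 genes higher in CHL1 were SESN1, APAF1 and CYFIP2, at -1.36, -1.67 and -4.59, and ZMAT3, RRM2B and SESN2 were not called.

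PRMT5, an arginine methyltransferase, and MDM4, a p53 inhibitor whose splicing depends on it, are a link between arginine methylation and CDK4 inhibition that has been studied in melanoma. PRMT5 had 118, 133 and 126 CPM in A375 and 111, 104 and 108 CPM in CHL1 (log2 fold change 0.22, SE 0.06, edgeR adjusted p = 0.00544), and MDM4 had 39.8, 38.1 and 35.1 CPM against 30.5, 31.2 and 27.2 CPM (0.35, SE 0.08, edgeR adjusted p = 0.0025). Both differences were well under 2-fold. MTAP, whose loss raises a natural inhibitor of PRMT5, was read in both lines, at 301, 292 and 283 CPM in A375 and 116, 124 and 127 CPM in CHL1. Of the 16 genes of this group, MTAP, CLNS1A, a PRMT5 partner, PRMT6 and PRMT7 were called at 2-fold higher in A375 and none in CHL1. PRMT7 differed by 1.08, the same as the median of its 30 neighbours, 29 of which were higher in A375.

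MHC class II genes were read in A375 and nearly silent in CHL1. All 13 genes of the presentation pathway were tested, 12 were called at 2-fold higher in A375, the protease gene CTSS was not called, and the median log2 fold change was 6.45. CIITA, the master coactivator of class II transcription, had 71.2, 76 and 46.8 CPM in A375 and 1.42, 1.36 and 1.07 CPM in CHL1 (log2 fold change 5.64, SE 0.23, edgeR adjusted p = 5.48e-09). CD74, the invariant chain that guides class II molecules to the endosome, had 1342, 1299 and 835 CPM in A375 and 0.996, 0.848 and 0.674 CPM in CHL1 (10.41, SE 0.26). HLA-DRA, the alpha chain of HLA-DR, had 303, 320 and 171 CPM against 0.284, 0.147 and 0 CPM, a depth-scaled ratio of 1769 (exact 95% interval 1012 to 3424). The A375 libraries were above CHL1 throughout, and A375 library 3 was the lowest A375 library for CIITA, CD74, HLA-DRA and HLA-DMA. HLA-DQB1 had 0 counts in every CHL1 library and was at least 119-fold higher in A375. HLA-DPB1 differed less, with 43, 38.7 and 32.4 CPM against 12.4, 11.9 and 11.2 CPM. HLA genes are polymorphic and share sequence, so reads can be assigned to a neighbouring family member.

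Promoters of class II genes hold a Y box with the core CCAAT, and those of CD74 and HLA-DMA are shown because these genes moved together, again in RefSeq GRCh38.p14 and on the gene's strand. Capitals mark CCAAT or its reverse complement ATTGG. CD74 is on the minus strand at chr5:150412861-150413160 with a match at -53 from the start site, and HLA-DMA is on the minus strand at chr6:32953048-32953347 with matches at -79 and -49.
CD74: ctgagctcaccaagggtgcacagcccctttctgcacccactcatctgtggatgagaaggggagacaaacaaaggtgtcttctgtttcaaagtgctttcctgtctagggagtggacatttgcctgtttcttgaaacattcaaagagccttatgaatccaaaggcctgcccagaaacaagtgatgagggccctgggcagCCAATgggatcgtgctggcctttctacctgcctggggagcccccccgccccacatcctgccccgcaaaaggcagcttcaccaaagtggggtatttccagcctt
HLA-DMA: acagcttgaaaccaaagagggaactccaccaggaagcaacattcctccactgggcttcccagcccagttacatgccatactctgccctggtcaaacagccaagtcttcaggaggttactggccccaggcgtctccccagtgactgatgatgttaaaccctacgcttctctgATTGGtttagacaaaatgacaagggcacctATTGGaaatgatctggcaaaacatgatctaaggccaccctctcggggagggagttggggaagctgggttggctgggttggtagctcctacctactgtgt
The motif, on either strand, was in 34.6% of the 35116 promoters and in at least 1 promoter of 39.7% of genes. It was in 9 of the 10 class II genes higher in A375 that had a promoter in the table, and HLA-DPA1 was the gene without it. A string this short is common and does not identify a bound site.

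Class I presentation did not follow class II. Of 22 genes, 5 were called at 2-fold higher in A375 and 4 in CHL1, with a median of -0.08 that became 0.03 with total-count scaling. B2M, the light chain of class I, had 439, 456 and 436 CPM in A375 and 404, 382 and 347 CPM in CHL1 (0.23, SE 0.06), HLA-B was not called, and HLA-C was higher in CHL1, at 190, 162 and 190 CPM against 73.7, 71.2 and 63.7 CPM. PSMB9, an immunoproteasome subunit, and NLRC5, the class I coactivator, were higher in A375 (2.04 and 1.40). Interferon-response genes split 15 to 6 among 41 tested, with a median of 0.63: OAS2, MX1 and IFIT1 were higher in A375, and OASL and CMPK2 in CHL1.

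Ligands that T cells read were also higher in A375 for 7 of 21 tested genes and in CHL1 for 5. CD274, which encodes PD-L1, had 4.65, 4.89 and 6.99 CPM in A375 and 0.107, 0.147 and 0.119 CPM in CHL1, a depth-scaled ratio of 44.4 (exact 95% interval 23.9 to 93.3). CD70, a ligand of the TNF family, had 60, 48.6 and 63.3 CPM in A375 and 3 counts in all of CHL1, and ICAM1 had 27, 22.4 and 23.1 CPM against 0.0356, 0.332 and 0.0794 CPM. The lines did not overlap for these ligands, as was so for 79% of all genes tested. The NKG2D ligand genes MICA, ULBP1 and ULBP3 were higher in CHL1, by -1.21, -1.38 and -1.41.

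Genes of secreted factors differed in both directions. Of 34 cytokine genes 25 were tested, 15 were called higher in A375 and 6 in CHL1, with a median of 2.00. CXCL12, the chemokine that retains CXCR4-bearing cells, had 0.0378, 0.111 and 0.110 CPM in A375 and 307, 304 and 303 CPM in CHL1, a depth-scaled ratio of 3514 (exact 95% interval 1705 to 8742). CXCR4 was itself among the genes read in CHL1 and at the floor in A375. CXCL1, a neutrophil chemokine, had 22.6, 29.4 and 24.4 CPM in A375 and 0.427, 0.479 and 0.278 CPM in CHL1, and IL11 had 35.3, 29.7 and 32.8 CPM against 1.21, 1.11 and 1.27 CPM. IL24 was uneven within A375, at 29, 60.3 and 19.4 CPM, with 1 count in CHL1. IL6 ran opposite to IL11, a cytokine of its own family, with 0.0378, 0.259 and 0.329 CPM in A375 and 34.9, 24.6 and 25.1 CPM in CHL1.

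**Figure D4:**
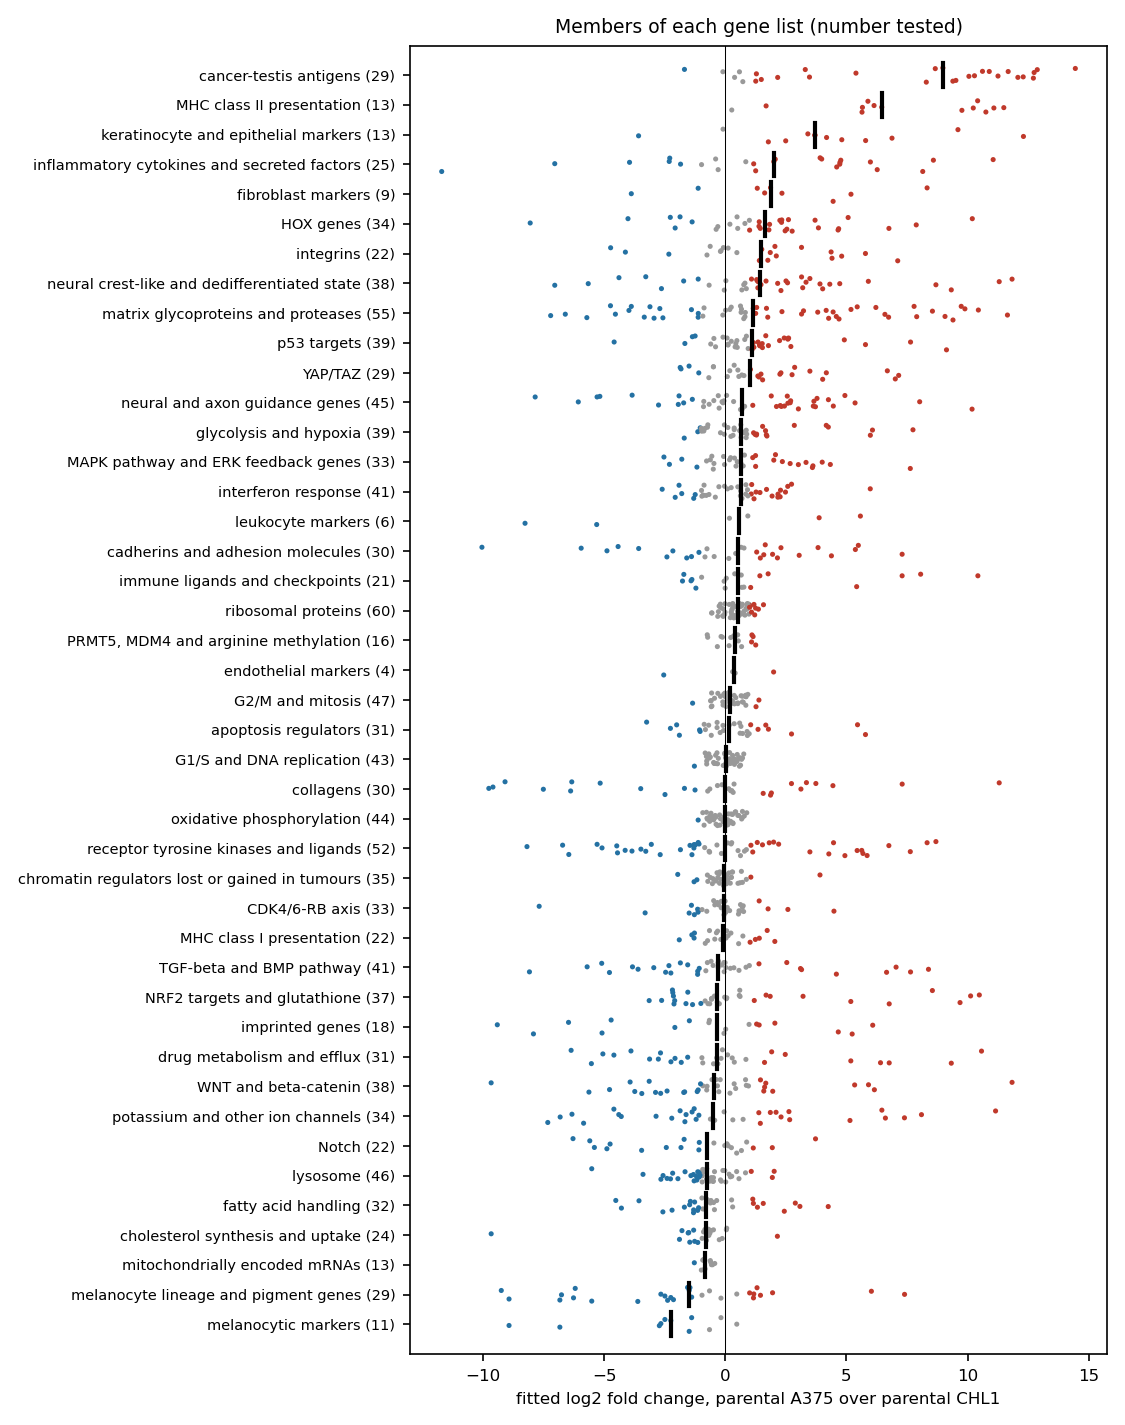
Log2 fold change of A375 over CHL1 (x axis) for every tested member of the 43 gene lists, ordered by the median (black bar), with the number tested in brackets. Red and blue points are members called at 2-fold higher in A375 or CHL1 and grey points are not called at 2-fold: cancer-testis antigens and MHC class II lie highest, melanocytic markers lowest, and replication, mitosis and oxidative phosphorylation genes cluster at 0.

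Collagens were exchanged between the lines with no net shift: 10 of 30 tested genes were called higher in A375 and 11 in CHL1, with a median of 0.00. COL11A1, a fibrillar collagen of cartilage, had 2.72, 3.70 and 8.60 CPM in A375 and 4388, 4455 and 4201 CPM in CHL1 (log2 fold change -9.76, SE 0.34, edgeR adjusted p = 2.14e-09). COL14A1, which associates with fibrils, had 0.416, 0.333 and 0.768 CPM against 393, 371 and 416 CPM, and COL18A1, a basement membrane collagen, had means of 27.9 and 1000 CPM. COL13A1, a transmembrane collagen, was read only in A375 at 37, 45 and 47.1 CPM, with 1 count in CHL1. The main basement membrane pair COL4A1 and COL4A2 differed by 0.36 and 0.15, and COL4A2 was not called. COL3A1 and COL1A2 were too low to test in either line, with 14 and 31 counts in the 3 A375 libraries.

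Matrix glycoproteins and proteases leaned to A375, with 28 of 55 tested genes higher there, 15 higher in CHL1 and a median of 1.16. TNC, a glycoprotein of invasive fronts, had 876, 551 and 522 CPM in A375 and 0.711, 0.848 and 0.714 CPM in CHL1 (log2 fold change 9.73, SE 0.28). THBS1 had 1956, 3822 and 2806 CPM against 35.1, 26.4 and 18.8 CPM, and FN1 274, 292 and 167 CPM against 27.4, 23.6 and 27.3 CPM. The spread of THBS1 within A375 was thus close to 2 times, and its distance from CHL1 far larger. SPP1 had 0 counts in CHL1 and was at least 132-fold higher in A375. PXDN, a matrix peroxidase that cross-links collagen IV, was the reverse, with 55.4, 37.1 and 71 CPM in A375 and 1436, 1415 and 1515 CPM in CHL1. The metalloproteases separated by kind: MMP2 was higher in A375 (331, 328 and 343 CPM against 16.9, 13.4 and 15.6 CPM), as was MMP1 (9.53, 12.3 and 25.2 CPM against 3 counts in all of CHL1), and the membrane-bound MMP14 and MMP15 were higher in CHL1 (-2.70 and -4.53).

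Integrins, the receptors for matrix, were higher in A375 for 12 of 22 tested genes and in CHL1 for 3. ITGA3, a laminin receptor chain, had 424, 372 and 465 CPM in A375 and 3.52, 2.51 and 3.06 CPM in CHL1 (7.11, SE 0.13), and the fibronectin receptor chain ITGA5 had 186, 151 and 189 CPM against 3.06, 3.54 and 2.94 CPM. The vitronectin receptor split, since ITGB3 was higher in A375 (128, 61.1 and 80.5 CPM against 4.20, 4.61 and 3.93 CPM) and its partner ITGAV in CHL1 (106, 108 and 101 CPM against 543, 505 and 535 CPM). ITGB1, shared by most of these receptors, had 508, 516 and 508 CPM against 553, 556 and 507 CPM and was not called. ITGA7 and ITGA9 were higher in CHL1 (-4.12 and -4.73).

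Adhesion molecules were called higher in A375 for 13 of 30 tested genes and in CHL1 for 10. CD44, the hyaluronan receptor, had 814, 879 and 826 CPM in A375 and 43.1, 38.8 and 39.1 CPM in CHL1. The adhesion gene CHL1, which is not to be confused with the line of the same name, had 0.189, 0.259 and 0.329 CPM in A375 and 283, 278 and 274 CPM in CHL1 (log2 fold change -10.04, SE 0.10, edgeR adjusted p = 2.86e-12). CDH2, the N-cadherin of melanoma, was higher in A375 (1.29), CDH19 and CDH11 in CHL1 (-3.57 and -4.42), and the E-cadherin gene CDH1 was too low to test, with 26 and 19 counts. MCAM, a melanoma adhesion molecule, had means of 259 and 1160 CPM.

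Cancer-testis antigens, germline proteins that many melanomas switch on, were almost all A375 genes. Of 48 genes 29 were tested, 24 were called at 2-fold higher in A375 and SSX1 alone in CHL1, where leaving out most single libraries gave 2 genes. Their median log2 fold change was 8.98, and 5.39 when genes with no count in CHL1 were set at their lower bound. XAGE1B had 101, 106 and 104 CPM in A375 and no count in CHL1, at least 922-fold higher against the floor. MAGEA4 had 975, 994 and 990 CPM in A375 and 0.249, 0.295 and 0.357 CPM in CHL1, MAGEC2 140, 148 and 156 CPM against 2 counts in all of CHL1, and PRAME 136, 110 and 126 CPM against 0.213, 0.111 and 0 CPM. CHL1 was not without the family: MAGEA3 had 98.5, 119 and 108 CPM in A375 and 87.5, 79.4 and 83.1 CPM in CHL1, and MAGEA6 167, 185 and 170 CPM against 124, 110 and 115 CPM. Members of the MAGE, GAGE, XAGE, SPANX and SSX families have near-identical copies that share reads, so values of single members are uncertain.

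Positional genes differed too. Of 34 tested HOX genes, 21 were called at 2-fold higher in A375 and 6 in CHL1, with a median of 1.62. HOXC10 had 43.3, 41.7 and 45.4 CPM in A375 and 1.39, 1.18 and 1.31 CPM in CHL1, and HOXB2 49.7, 45.5 and 42.8 CPM against 1.42, 1.88 and 2.10 CPM. Within the HOXB cluster the direction turned: HOXB7 had 2 counts in all of A375 and 6.51, 8.19 and 8.69 CPM in CHL1, and HOXB9 was also higher in CHL1 (-2.27, SE 0.12). Imprinted genes, expressed from 1 parental copy, were called in either direction for 13 of 18 tested. PEG10 had 7.75, 5.63 and 7.03 CPM in A375 and 580, 554 and 674 CPM in CHL1, PEG3 differed by -7.92, and NDN and MEST were higher in A375 (4.66 and 6.08).

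Genes of Notch, WNT and TGF-beta signalling, pathways of development, were more often called higher in CHL1 than in A375. For Notch, 11 of 22 tested genes were higher in CHL1 and 3 in A375, with a median of -0.77. HES6 had 3.33, 4.26 and 3.62 CPM in A375 and 163, 136 and 175 CPM in CHL1, and the receptor NOTCH3 had 17.1, 19 and 16.1 CPM against 83, 90 and 109 CPM. The ligand JAG1 was the exception, at 43.2, 57.9 and 45.2 CPM in A375 and 3.63, 4.06 and 3.37 CPM in CHL1, whereas JAG2 and DLL1 were higher in CHL1 (-4.75 and -5.59). HES1, the classical target, differed by -0.47 (SE 0.16).

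For WNT signalling, 15 of 38 tested genes were higher in CHL1 and 9 in A375, with a median of -0.46. The feedback targets AXIN2, NKD2 and SP5 were among those of CHL1: AXIN2 had 0.567, 0.741 and 0.439 CPM in A375 and 5.23, 4.61 and 5.67 CPM in CHL1, and SP5 had no count in A375 and 3.52, 3.83 and 3.93 CPM in CHL1. Of the nuclear factors, TCF7 and TCF7L1 were higher in CHL1 (-3.44 and -5.63) and LEF1 in A375 (1.45). DKK1, a secreted WNT antagonist, had 120, 237 and 160 CPM in A375 and 49.5, 44.1 and 39.6 CPM in CHL1.

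For TGF-beta and BMP signalling, 15 of 41 tested genes were higher in CHL1 and 9 in A375, with a median of -0.29. The ID genes, direct targets of BMP, were all higher in CHL1, from -0.50 for ID1 to -8.08 for ID4, which had 2.16, 1.00 and 1.79 CPM in A375 and 464, 417 and 460 CPM in CHL1. SMAD3, which carries TGF-beta signals, had 122, 124 and 133 CPM in A375 and 5.41, 5.09 and 5.32 CPM in CHL1, and SMAD9 was the reverse (-4.78). The BMP antagonist CHRDL1 and the ligand BMP4 were read in A375 and close to silent in CHL1. Among 45 neural guidance genes, 21 were higher in A375 and 10 in CHL1: SEMA3A, a repellent cue, had 83.3, 91.4 and 100 CPM against 0.0711, 0.147 and 0 CPM, and SLIT3 differed by a depth-scaled ratio of 236 in favour of CHL1 (exact 95% interval 140 to 432).

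Metabolic genes moved by group. Cholesterol genes were higher in CHL1: 9 of 24 tested were called at 2-fold there and 1 in A375, and the median was -0.81. SREBF2, their master regulator, had 84.4, 62.4 and 71.9 CPM in A375 and 248, 247 and 260 CPM in CHL1 (-1.79, SE 0.10), SQLE differed by -1.53 and MSMO1 by -1.89.

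Lysosomal genes were also higher in CHL1, with 18 of 46 tested called there at 2-fold, 3 in A375 and a median of -0.77. ASAH1, the acid ceramidase and a known MITF target, had 30.3, 29.7 and 30.8 CPM in A375 and 1439, 1439 and 1263 CPM in CHL1 (-5.51, SE 0.08), and its 30 neighbours on chromosome 8 had a median of -1.12. LAMP2, a lysosomal membrane protein, had 96.6, 104 and 103 CPM against 656, 661 and 600 CPM, and CTSD 156, 144 and 144 CPM against 460, 442 and 499 CPM. TFEB, a regulator of lysosome genes, was higher in CHL1 (-2.57) and its relative TFE3 in A375 (1.07).

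Glycolysis and hypoxia genes leaned to A375, with 14 of 39 called at 2-fold higher there, 3 in CHL1 (5 without CHL1 library 3) and a median of 0.65. GAPDH had 7849, 7399 and 8066 CPM in A375 and 3395, 3154 and 3399 CPM in CHL1, PKM 3642, 3775 and 3678 CPM against 1663, 1556 and 1723 CPM, and GPI differed by 1.66. The lactate dehydrogenase genes parted, LDHA at 0.59 and LDHB at -1.69. Nuclear genes of oxidative phosphorylation were level, with NDUFS1 the sole 2-fold call of 44 and a median of -0.02 that became 0.08 with total-count scaling. All 13 mitochondrially encoded mRNAs were called lower in A375, from -0.44 for MT-ND3 to -1.28 for MT-ND1, beside the higher mitochondrial share of counts in CHL1 given above.

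Of 60 ribosomal protein genes, 47 were called higher in A375 and 7 in CHL1, with a median of 0.52, and 9 reached 2-fold. Processed copies share reads with these genes, and 15 reached 2-fold with total-count scaling. Fatty acid genes were higher in CHL1 for 13 of 32 tested and in A375 for 8. PLIN2, a coat protein of lipid droplets, had 422, 503 and 514 CPM in A375 and 61.5, 54.6 and 54.3 CPM in CHL1, and PPARGC1A, a mitochondrial coactivator that MITF can drive, had 1.74, 1.22 and 1.98 CPM against 18.7, 19.3 and 20.5 CPM.

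Of 37 tested NRF2 and glutathione genes, 10 were called at 2-fold higher in A375 and 11 in CHL1, with a median of -0.33. Of 31 tested genes of drug metabolism and efflux, 8 were higher in A375 and 12 in CHL1, with a median of -0.36. GPX1, a glutathione peroxidase read in most cells, had 219, 259 and 239 CPM in A375 and 0.249, 0.369 and 0.238 CPM in CHL1 (log2 fold change 9.68, SE 0.13, edgeR adjusted p = 1.02e-11). The pseudogene GPX1P1 was read in A375 at 32.4, 34 and 37.6 CPM and had 3 counts or fewer in each CHL1 library. GPX4 and GPX3 were higher in CHL1 (-1.35 and -2.18). The aldo-keto reductase genes AKR1C1, AKR1C2 and AKR1C3, which share sequence, had means between 15.6 and 24.4 CPM in A375 and 5 counts together in CHL1. FTL, the ferritin light chain, had 896, 1158 and 1230 CPM against 121, 109 and 126 CPM. ALDH1A3, which makes retinoic acid, had 472, 691 and 506 CPM in A375 and 0.249, 0.516 and 0.317 CPM in CHL1. The efflux pump ABCG2 had 13.3, 19.8 and 23.5 CPM against 2 counts in CHL1, and ABCB4 and ABCA8 were pumps of CHL1 (-5.05 and -5.53).

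Of 31 tested apoptosis regulators, 7 were called at 2-fold higher in A375 (22.6%) and 6 in CHL1 (19.4%), shares near those of all genes, with a median of 0.17. TNFRSF10A, a receptor of TRAIL, had 26, 29.1 and 32.1 CPM in A375 and 0.889, 0.516 and 0.555 CPM in CHL1, and CASP8 37.1, 36.7 and 39.3 CPM against 5.55, 5.79 and 5.67 CPM. BCL2 had 9.98, 9.37 and 9.48 CPM against 38.8, 38.9 and 38.2 CPM, and BOK differed by -3.25. MCL1 and BCL2L1, with 0.91 and 0.99, were higher in A375 under 2-fold. Chromatin regulators stayed close: 30 of 35 were not called at 2-fold, and DNMT3A (-1.96) and HDAC9 (3.91) were among the 5 that were. Ion channels, in contrast, were called for 29 of 34, with KCNMA1 at 35.6, 38.3 and 42.6 CPM in A375 and 1 count in CHL1, and PIEZO2, a touch channel, at 0.529, 0.741 and 2.12 CPM against 185, 186 and 178 CPM.

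Markers of other cell types were checked in both lines. Of 20 keratinocyte and epithelial markers 13 were tested, 11 were called at 2-fold higher in A375 and JUP higher in CHL1 (-3.58). The list summed to 772 to 965 CPM per library in A375 and 150 to 173 CPM in CHL1. That sum included KRT18 (286, 290 and 372 CPM against 17.5, 16.5 and 18.3 CPM), KRT80 and KRT81. EPCAM and CDH1, which define epithelium, were too low to test, at 14 and 26 counts in A375. Fibroblast markers summed to 360 to 381 CPM in A375 and 55.7 to 68.2 CPM in CHL1, with MMP2 at 328 to 343 CPM in A375. Of the 9 tested, 7 were called at 2-fold higher in A375, and FBLN1 (-3.88) and LUM (-1.12) in CHL1. FAP, COL1A2 and COL3A1 were too low to test. Leukocyte markers summed to 68.7 to 93.6 CPM in A375 and 122 to 138 CPM in CHL1. CD68 was higher in A375 and LCP1 and PTPRC in CHL1, while CD3E, CD3D and MS4A1 had at most 3 counts in a line. Endothelial markers summed to 24.9 to 30.7 CPM and 52 to 57.2 CPM. In bulk RNA, fewer cells of a type and less RNA per cell cannot be told apart, and the part of such cells in the results was not tested.

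Some genes were read in 1 line and absent from the other. With at least 10 CPM in every library of 1 line and at most 3 counts in every library of the other, 87 genes were A375 genes (0.472% of those tested) and 53 were CHL1 genes (0.288%). Of these, 66 and 50 were protein-coding, and 16 and 5 of all 87 and 53 lay on the X chromosome. Among tested genes the X share is at hand for protein-coding genes alone, 521 of 14114 (3.69%). With 0 counts required in every library of the lower line, 21 and 3 genes were left. In each direction, the 15 largest fitted log2 fold changes with at least 10 CPM and an established symbol were taken. For A375 they were the cancer-testis genes XAGE1B, PAGE2, MAGEA11, CTAG1B, SPANXB1 and MAGEC2, and HS6ST2, MAP9, SLC16A5, NAA11, KRT81, ATP10A, NKX2-5, FOXR2 and HLA-DRB6. All but MAGEC2 had no count in CHL1, so their fitted values are no bounds and their places depend on the fit. MAP9, a microtubule-associated protein of the spindle, had 41.4, 37.9 and 40.2 CPM in A375 and no count in CHL1, at least 356-fold higher. NKX2-5, a heart transcription factor, had 18.4, 21.7 and 19 CPM and no count in CHL1. FOXR2, a forkhead factor of the X chromosome, had 19.1, 20.8 and 18.7 CPM, again with none in CHL1.

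For CHL1 the 15 were TMEM273, HOOK1, CXCL12, DLGAP2, IL2RB, LINC01151, PCK1, PDZRN4, CCDC68, CNDP1, TNFSF8, GJD2, TCEAL7, WSCD2 and DACT2. Among them TMEM273, HOOK1 and DLGAP2 had no count in A375, so their places also depend on the fit. TMEM273 had 33.6, 34.4 and 33.5 CPM in CHL1 and no count in A375, at least 304-fold higher. PCK1, the gatekeeper of gluconeogenesis, had 0.0378, 0 and 0.110 CPM in A375 and 108, 112 and 117 CPM in CHL1, and IL2RB, an interleukin-2 receptor chain of lymphocytes, had 2 counts in A375 and 75.6, 68.8 and 78 CPM in CHL1. The lines were apart in every library for these genes, as the rule that chose them required. Among long non-coding RNAs, A375 read UCA1 (39.5, 50 and 75.1 CPM), LINC00857, LINC00973 and LINC02953, and CHL1 read LINC01151 (99.1, 110 and 103 CPM), LINC01508, SNHG18, PP7080 and LINC02593. MAGEA4-AS1 was also an A375 gene, but the library kit does not mark the strand, so its reads cannot be told from those of MAGEA4 where they overlap.

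Several of these genes lay side by side, in runs picked out after the values were seen. The run of HLA-DRB5, HLA-DRB1, HLA-DQA1, HLA-DQB1, HLA-DQA2 and HLA-DQB2 had 15 counts in all in CHL1 and means of 4.31 to 79.5 CPM in A375. The collagenase cluster MMP8, MMP1, MMP3 and MMP13 on chromosome 11 had 8 counts in CHL1, the keratin run KRT7, KRT86 and KRT81 on chromosome 12 had 3, and the muscle myosin run MYH13, MYH8, MYH1 and MYH2 on chromosome 17 had 5, against 2.18 to 22 CPM in A375. Members of such clusters are related in sequence and may share reads.

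Whole stretches of chromosomes were shifted between the lines. Over protein-coding genes, the median log2 fold change ran from -0.65 on chromosome 22, -0.61 on chromosome 8 and -0.54 on chromosome 6 to 0.26 on chromosome 5 and 0.27 on chromosome 20, with SDs over library pairs from 0.01 to 0.05. On chromosome 22, 19.1% of 225 genes with at least 5 CPM in both lines were higher in A375. In running windows of 31 such genes, the lowest median was -1.96, around PICK1 on chromosome 22 from CARD10 to APOBEC3B. SOX10 lies there, and its own -1.39 was less than the median of -1.95 of its 30 neighbours, 28 of which were higher in CHL1. Windows around TTC21B on chromosome 2 (-1.44) and BCAT1 on chromosome 12 (-1.19) were lower in A375, and those around MRGBP on chromosome 20 (1.17), DDX19B on chromosome 16 (1.17) and KBTBD8 on chromosome 3 (1.05) were higher. MITF lies in a stretch with a neighbour median of 0.99, above its own 0.47, and EGFR (8.69) in a stretch at -0.73. Copy number was not measured in these data.

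**Figure D5:**
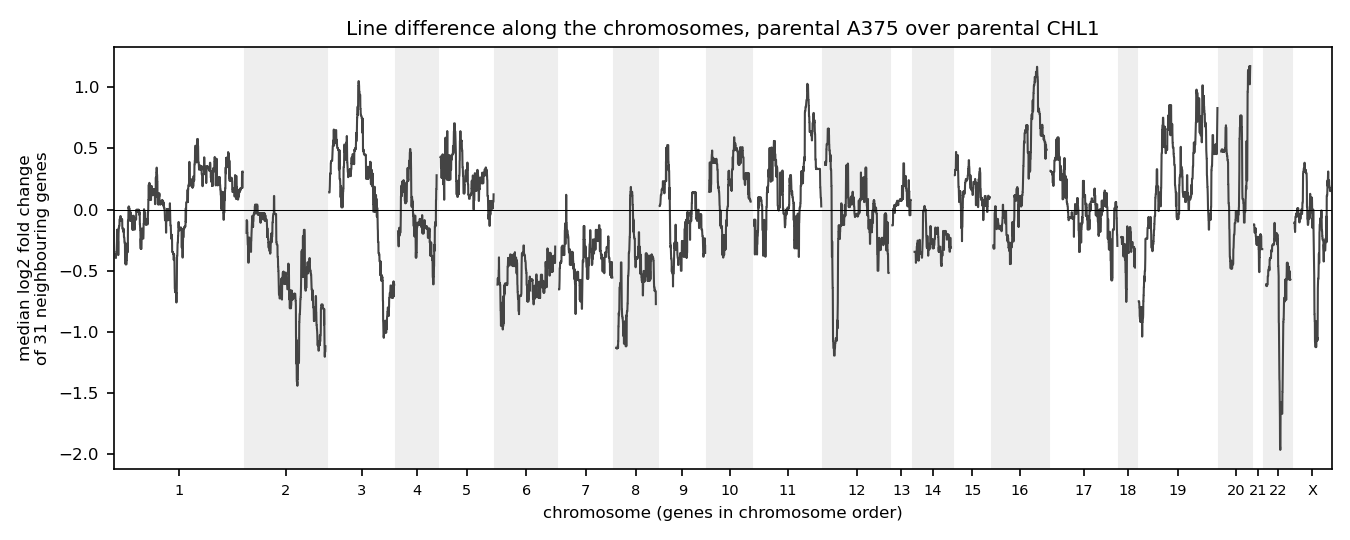
Running median of the log2 fold change of A375 over CHL1 (y axis) over 31 neighbouring protein-coding genes with at least 5 CPM in both lines, in chromosome order (x axis, shaded by chromosome). The deepest trough, -1.96, is on chromosome 22, and peaks of 1.17 are on chromosomes 16 and 20.

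The resistant derivatives, whose 6 libraries the baseline comparison did not use, gave the line difference a second time. Between them 7791 of 19545 tested genes were called at 2-fold (39.9%), 4122 higher in A375 and 3669 higher in CHL1. Of the 6971 baseline 2-fold calls, 5850 (83.9%) were called in the same direction and 35 (0.502%) in the opposite one. CDK6 kept its direction in the derivatives, at 309, 302 and 279 CPM in A375 and 36.9, 31.6 and 40.8 CPM in CHL1, AXL had a line difference of 3.89, and CDKN2A one of -2.98. Of the genes read in 1 line alone, 51 of the 87 of A375 and 27 of the 53 of CHL1 met the same cut-offs in the derivatives. For that count, CPM in the derivatives was scaled by total counts without TMM factors.

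The size of the line difference changed with resistance for 4516 genes (23.1%) in the interaction test, 1321 of them by at least 2-fold. Among baseline 2-fold calls 1815 changed, 1093 to a smaller and 722 to a larger difference. These genes were selected on the parental libraries that the interaction test also used. Such selection can by itself favour smaller differences, so the part of resistance in this split was not tested. NGFR turned: it was higher in A375 at baseline and had 16.2, 17.2 and 19.9 CPM in resistant A375 against 68, 78.8 and 70.9 CPM in resistant CHL1 (interaction 3.71, edgeR adjusted p = 6.57e-09). PTGS2, a prostaglandin synthase, turned the other way, from 0.983, 2.04 and 0.732 CPM in A375 and 6.12, 6.71 and 5.87 CPM in CHL1 at baseline to 8.14, 23.9 and 11.5 CPM and 0.527, 0.680 and 0.973 CPM. UCA1 was at 0.172, 0.161 and 0.182 CPM in resistant A375, close to its level in CHL1. The difference in CDK6 narrowed by 1.45 on the log2 scale (edgeR adjusted p = 3.85e-06), and those in MITF, SOX10 and CD74 were not called as changed, with edgeR adjusted p values of 0.823, 0.302 and 0.975.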

How the data were processed

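RNA from the 2 lines was prepared with the TruSeq RNA v2 kit, which does not mark strand, per the labels' protocols. The authors deposited raw read counts per Ensembl gene in 2 tables, 1 per line, and per the submitters' processing notes the tools, listed without roles, were HTSeq 0.5, TopHat2, limma, CASAVA 1.8.2 and cutadapt 1.7. The genome build is not given in the sources used here. The tables were joined on the gene identifier, and an identifier missing from 1 table counted as 0.

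The 6 parental libraries were fitted with edgeR 4.0.16 in R 4.3.3: filterByExpr, TMM, quasi-likelihood F-test and Benjamini-Hochberg adjustment over all genes tested. A gene was called at an adjusted p below 0.05, and at 2-fold where the fold change also reached 2. The line difference in the resistant derivatives and its change came from a fit to all 12 libraries. The procedure was tested on simulated data. Same-numbered libraries of the lines were not paired. DESeq2 1.42.0, other scalings, filters, a replicate block and leaving out each library were the alternatives. Intervals and floors cover counting error only. Names, gene types and gene order came from GENCODE, and promoters from RefSeq. Figures were drawn with matplotlib 3.10.9.

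Named genes were a panel of 40 and up to 4 per direction, called at 2-fold with at least 5 CPM, from each of the 43 lists. To these came the 15 largest fitted log2 fold changes per direction among 2-fold calls with at least 10 CPM, and 5 long non-coding RNAs per direction. Only these last 2 sets were required to show no overlap between lines and an established symbol. Other list members given with values were chosen after their values were seen. The comparison and the lists were chosen with earlier results of these data known. Some items withheld for evaluation are not reported here.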

Additional observations from a re-analysis of the deposited data

Results flagged for a closer look

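The line difference was estimated in the parental cells and again in the resistant derivatives, and 26 named genes changed by at least 4-fold between these estimates in the interaction test of the 12-library edgeR fit. Interaction values are the parental minus the resistant log2 difference of A375 over CHL1, and their edgeR adjusted p values ran from 6.57e-09 for NGFR to 0.0373 for SLC16A5. For 5 genes the direction turned. NGFR (3.707), CDKN1C (2.058) and CTSK (2.71) were higher in A375 at baseline and lower in A375 among the derivatives, and PTGS2 (-6.624) and LUM (-2.607) did the opposite. LUM, a matrix proteoglycan, had 5.45, 9 and 5.82 CPM in parental A375 and 17.7, 24.3 and 19.6 CPM in resistant A375.

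Genes higher in parental CHL1 came closer in the derivatives: SNAI2 (-2.072), CYFIP2 (-2.073), DCT (-3.371), GRB10 (-2.101), SEMA6D (-2.429), FBN2 (-2.767), COL22A1 (-5.535), HOXB9 (-2.047) and LINC02593 (-2.71). HOXB9 was no longer called between the derivatives (edgeR adjusted p = 0.203). The difference in favour of CHL1 widened for LOXL1 (2.725), PXDN (6.107), CDH11 (2.96), PIEZO2 (2.543) and GPX3 (2.361). PXDN had 0.996, 0.935 and 0.51 CPM in resistant A375, against 55.4, 37.1 and 71 CPM in parental A375.

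The difference in favour of A375 widened for PPARG (-3.453), COL8A1 (-3.252) and COL6A3 (-2.014) and narrowed for COL5A3 (2.281), SLC16A5 (4.329), HS6ST2 (9.822) and UCA1 (8.496). PPARG had 3.04, 2.44 and 3.79 CPM in resistant CHL1, against 26.6, 25.2 and 25.3 CPM in parental CHL1. SLC16A5 and HS6ST2 had no count in parental CHL1 and UCA1 at most 3 counts a library there, so the sizes of these values depend on the fit and are no bounds. The listing is of named genes alone, and no group of 3 libraries was examined for outliers.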

How the results depend on the processing

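No named gene that was called changed direction under the alternatives that were run, and the uncalled CDK4, CDKN2C, RB1 and PMEL changed sign in some. The medians of 5 lists near 0 changed sign with total-count and upper-quartile scaling, those of receptor tyrosine kinases, the CDK4/6-RB axis, class I presentation, oxidative phosphorylation and chromatin regulators (-0.05 to 0.06). The line with more 2-fold calls turned to CHL1 with a minimum of 1 CPM in 3 libraries (2808 against 2962) and with identifiers in both tables alone (3345 against 3412). Asking for 4-fold left 1834 genes higher in A375 and 1760 in CHL1, and 8-fold left 1249 and 1122. Genes read in 1 line and at the floor in the other numbered 149 and 89 with a minimum of 5 CPM, 377 and 227 with 1 CPM, and 21 and 3 with 0 counts required. The median line difference by chromosome, highest minus lowest, was 0.8355 over genes of at least 5 CPM in both lines, against 0.9278 over all tested genes. Leaving out 1 library at a time gave 6893 to 7219 genes called higher in A375, 6637 to 6879 in CHL1, 3617 to 3760 and 3498 to 3608 at 2-fold, 90 to 96 and 53 to 61 read in 1 line, and, for the change of the line difference with resistance, genes called, 3739 to 4488 against 4516 with all libraries. The same-numbered libraries deviated with correlations of -0.10, 0.02 and 0.08, and the other pairs ran from -0.21 to 0.18. With 3 libraries a line, these values cannot decide whether the numbers pair the libraries. The replicate block gave 7052 and 6858 calls, 3506 and 3461 at 2-fold, and 4630 genes whose line difference changed with resistance, and among named genes it added calls of E2F1 and CDK2. DESeq2 called 3446 and 3426 genes at 2-fold. Of the values of named genes under the alternatives, 4763 kept their call, 3 lost it (CCNE1) and 11 gained it (E2F1, CDK2 and MLANA). Of the list counts, 1266 stayed within 1.5 times and 24 did not, in 7 lists and directions, among them melanocyte genes higher in A375, 13 without a filter. Depth limits the genes under about 10 counts a library, where folds rest on floors.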
